A study of Mus musculus with 123 samples.

Results

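Liver RNA was examined for the nuclear genes of the mitochondrial respiratory chain and the ATP synthase, chosen by name. They were every gene of the deposited table whose symbol begins with Nduf, Uqcr, Cox4, Cox5, Cox6, Cox7, Cox8 or Atp5, together with Sdha, Sdhb, Sdhc, Sdhd and Cyc1, and without the 1 symbol that carries the mark -ps. This gave 92 genes of the 15398 in the table. They comprised 40 genes named for complex I, 8 assembly factors of complex I (Ndufaf1 to Ndufaf8), 4 genes of complex II, 9 of complex III, 14 of complex IV and 17 of the ATP synthase. The assembly factors fit the name rule without being subunits, so they were counted apart. In all, 91 of the 92 genes had at least 1 CPM (the reads of a gene, scaled to the size of the library) in at least 3 libraries and were tested. The other gene, Ndufs6b, is annotated as a processed pseudogene of the complex I subunit gene Ndufs6 and lay between -3.10 and -0.39 log2 CPM.

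The livers came from mice on a high fat diet (HFD, 61 libraries) or a low fat diet (LFD, 62 libraries), housed under a photoperiod that the labels call Equal light, Long light or Short light. They were taken at 6 zeitgeber times (ZT), 4 h apart from ZT0 to ZT20, making 36 groups, of which 21 hold 3 libraries and 15 hold 4. A diet and a photoperiod together are called an arm here. The labels name the tissue, diet, photoperiod and time, and give no strain, genotype, sex, age, diet recipe, hours of light or event that marks ZT0. Separate animals are not named either, and p-values therefore rest on sample-to-sample spread that may in part be technical.

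Depth, recovered from the deposited values, ran from 13.97 M to 39.09 M reads per library (M, mega), with a median of 24.06 M, and all 10 hepatocyte markers of a marker list were measured. RNA of skeletal muscle or pancreas was also present: 17 libraries had a mean marker level of either tissue above a log2 CPM of 4, 12 of them LFD and 5 HFD, 3 in Equal, 9 in Long and 5 in Short light. A pair of libraries lay farthest from their groups, HFD Equal light ZT20 replicate 1 and LFD Equal light ZT0 replicate 3, with root mean square deviations of 0.626 and 0.611 log2 units against a median of 0.342. Both were low for the subunits of every complex. The median complex III gene stood at -0.987 in the first and -0.608 in the second, on a log2 scale centred on each gene's mean over libraries, and another library of the same light, HFD Equal light ZT4 replicate 2, stood at -0.84. Some counts below are also given without the pair of far libraries. HFD Equal light ZT4 replicate 2 was not left out by itself. These are bulk samples, in which fewer cells of a type and less RNA per cell cannot be told apart.

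The respiratory chain passes electrons from NADH, through complex I, and from succinate, through complex II, by way of ubiquinone to complex III, cytochrome c and complex IV, where oxygen is reduced to water. Complexes I, III and IV pump protons across the inner mitochondrial membrane, and the ATP synthase, also called complex V, uses their return to make ATP. A few subunits of these complexes are encoded by the mitochondrial genome and all others by nuclear genes. In liver the chain takes up the electrons set free by fatty acid oxidation and supplies the ATP for glucose and urea synthesis.

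The promoters of the genes that the results below turn on are shown first, as the RefSeq window from 250 bases before to 50 bases after the start, on GRCm38.p6, 5' to 3' on the strand of the gene. Ndufs3 and Ndufb10 were among the most regular daily rhythms of complex I, Ndufaf4 had one of the largest rhythms, and Sdhd and Ndufaf1 showed the firmest decrease and increase with diet. Capitals mark matches, on either strand, to core motifs of factors known to act on respiratory chain genes: GCGCATGC for NRF1, CCGGAAG for ETS factors such as GABP, AAGATGGC for YY1 and TCAAGGTCA for the estrogen-related receptors.
Ndufs3, chr2:90904672-90904971, minus strand: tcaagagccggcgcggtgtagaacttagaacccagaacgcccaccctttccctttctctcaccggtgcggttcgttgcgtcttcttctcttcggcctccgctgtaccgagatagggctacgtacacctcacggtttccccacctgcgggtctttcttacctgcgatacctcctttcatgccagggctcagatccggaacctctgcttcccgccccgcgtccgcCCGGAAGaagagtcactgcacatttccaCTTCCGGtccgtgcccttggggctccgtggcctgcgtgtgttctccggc
Ndufb10, chr17:24724374-24724673, minus strand: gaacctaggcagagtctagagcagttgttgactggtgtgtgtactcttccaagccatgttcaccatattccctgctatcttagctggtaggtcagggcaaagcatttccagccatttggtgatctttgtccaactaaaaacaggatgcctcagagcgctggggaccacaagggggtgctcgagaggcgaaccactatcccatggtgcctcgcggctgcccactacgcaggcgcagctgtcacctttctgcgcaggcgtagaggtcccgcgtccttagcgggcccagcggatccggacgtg
Ndufaf4, chr4:24897833-24898132, plus strand: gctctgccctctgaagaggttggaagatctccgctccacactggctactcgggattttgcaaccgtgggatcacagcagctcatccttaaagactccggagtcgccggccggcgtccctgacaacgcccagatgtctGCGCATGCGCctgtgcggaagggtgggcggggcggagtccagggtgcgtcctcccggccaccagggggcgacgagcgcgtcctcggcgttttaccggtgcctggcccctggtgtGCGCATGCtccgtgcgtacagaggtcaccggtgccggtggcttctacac
Sdhd, chr9:50603800-50604099, minus strand: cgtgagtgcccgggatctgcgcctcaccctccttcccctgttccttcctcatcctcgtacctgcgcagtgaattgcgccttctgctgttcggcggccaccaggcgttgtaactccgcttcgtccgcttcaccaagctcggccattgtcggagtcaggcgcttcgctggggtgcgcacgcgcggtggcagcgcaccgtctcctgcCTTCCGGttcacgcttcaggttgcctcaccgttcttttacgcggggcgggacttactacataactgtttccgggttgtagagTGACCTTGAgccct
Ndufaf1, chr2:119662785-119663084, minus strand: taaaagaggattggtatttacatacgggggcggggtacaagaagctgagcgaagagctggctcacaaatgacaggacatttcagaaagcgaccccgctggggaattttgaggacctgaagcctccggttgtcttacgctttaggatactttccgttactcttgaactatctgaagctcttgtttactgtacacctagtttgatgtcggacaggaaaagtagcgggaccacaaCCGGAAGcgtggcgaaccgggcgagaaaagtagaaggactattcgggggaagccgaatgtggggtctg

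Windows were found for 75 of the 92 genes. The NRF1 core occurred in 16% of them against 3.05% of the windows of all 27025 genes with RefSeq windows. That is a wider set than the 15398 genes of the deposited table. The ETS core occurred in 25.3% against 9.93%, the YY1 core in 14.7% against 3.19%, and the receptor core in 2.67%, the windows of Sdhd and Atp5g3, against 0.466%. CACGTG, the E-box bound by clock factors, was at 8.0% against 8.09% of the same wider set. A match describes only the letters of the window. Among the printed windows, Ndufaf4 held the NRF1 core in more than a single place, in the first of them on both strands with overlapping letters, Ndufs3 held the ETS core in more than a single place, Sdhd held the ETS and the receptor core, and Ndufb10 held none of these.

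Levels per length spanned a wide range within each complex. CPM divided by the annotated exon length in kilobases, which is the scale used here to compare genes, was highest for Atp5a1 and Atp5b at 352 and 287, the genes of the alpha and beta subunits that form the catalytic head of the ATP synthase. Next came subunits of cytochrome c oxidase, Cox6a1 at 225, Cox6b1 at 221, Cox8a at 196 and Cox4i1 at 180. Sdhd, a membrane anchor of complex II, stood at 179, and Sdha, its flavoprotein, at 155. Complex III genes lay between 59.4 (Uqcrc1, a core protein) and 148 (Uqcr11), complex I genes mostly lower, and the assembly factors between 2.57 (Ndufaf5) and 17 (Ndufaf1). The length is that of all annotated exons of a gene merged over its isoforms, so a gene with long rare exons reads low on this scale.

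The paralog pairs showed the liver forms well above the others. Cox7a2, the form found in liver, stood at 138 CPM per kilobase and the muscle form Cox7a1 at 3.13, Cox6a1 at 225 against Cox6a2 at 1.44, and Cox8a at 196 against Cox8b at 1.79. Cox7a2l, which helps to join complexes III and IV, stood at 39.3. Ndufa4, now regarded as belonging to complex IV, stood at 161 against 1.27 for its paralog Ndufa4l2. Of the 3 genes that encode the same subunit c of the ATP synthase, Atp5g3 stood at 163, Atp5g1 at 20 and Atp5g2 at 10.7.

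Few of these genes passed the test for a diet difference, and most of those that did were 5.1% to 8.1% lower in HFD. Over all photoperiods and times, 13 of the 91 genes differed between diets with an adjusted p under 0.05 (limma on log2 CPM, Benjamini-Hochberg over 14397 genes), 2 of them higher and 11 lower in HFD. The share in all genes tested was 25.5%, with 12.9% higher and 12.6% lower, and the share in this set was 14.3%; the difference between the shares was not tested. The median log2 difference was -0.015 over the 91 genes and -0.004 over all genes tested. Estimates below 0 numbered 60 of the 91, against 7430 of 14397 over all genes. The median 95% interval reached 0.056 log2 units to either side. By complex, 5 of 39 genes were called in complex I, 2 of 8 assembly factors, 1 of 4 in complex II, 1 of 9 in complex III, 3 of 14 in complex IV and 1 of 17 in the ATP synthase. Both increases were assembly factors, and every called subunit fell.

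**Figure D1:**
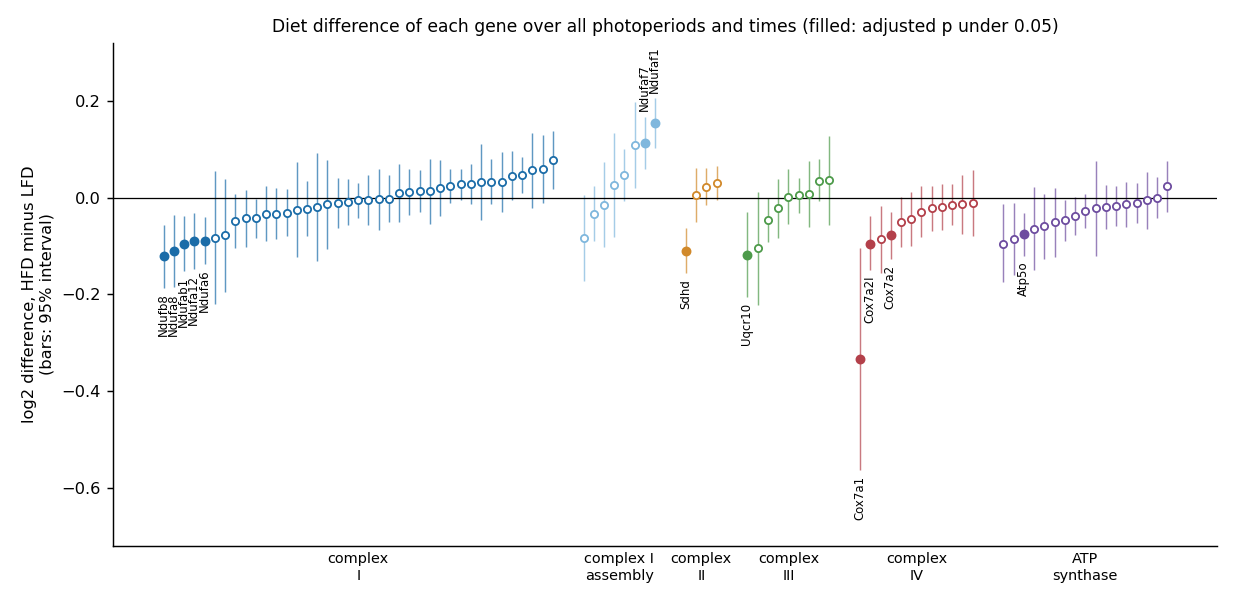
The log2 difference HFD minus LFD (vertical axis) of each tested gene, grouped by complex and ordered within it, with bars for the 95% interval and filled points for an adjusted p under 0.05. The filled points are 11 genes below 0, between -0.075 and -0.334, and the assembly factors Ndufaf7 and Ndufaf1 above 0, and Cox6a2 and Cox8b are not drawn because their intervals exceed the axis.

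Sdhd, which anchors complex II in the inner membrane and binds ubiquinone, showed the firmest decrease. Its log2 CPM ran from 7.35 through a median of 7.84 to 8.15 in LFD and from 7.44 through 7.70 to 8.07 in HFD. The ranges overlapped almost wholly, while the HFD group mean was the lower in 16 of the 18 pairs of groups matched for photoperiod and time. The difference was -0.11 (SE 0.023, adjusted p 0.000164), a decrease of 7.3%. The other complex II genes gave 0.031 (Sdha, adjusted p 0.207), 0.022 (Sdhc, the other anchor, 0.423) and 0.006 (Sdhb, the iron-sulfur protein, 0.917). None of these passed the test.

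Ndufaf1, a chaperone needed for the membrane arm of complex I, rose. Its log2 CPM ran from 4.31 through 4.56 to 5.03 in LFD and from 4.50 through 4.74 to 5.29 in HFD, overlapping over most of their length, with HFD the higher in 17 of 18 pairs of groups. The difference was 0.15 (SE 0.026, adjusted p 1.64e-06), an increase of 11.3%. Ndufaf7, a methyltransferase needed for complex I assembly, rose by 8.1% (0.11, SE 0.027, adjusted p 0.000983) and was higher in 16 of 18 pairs. Ndufaf3 gave 0.11 (SE 0.045, adjusted p 0.0647) and Ndufaf4 -0.083 (SE 0.045, adjusted p 0.171), both short of the threshold.

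In complex I the called genes were accessory subunits, which surround the catalytic core. Ndufb8 of the membrane arm fell by 8.1% (-0.12, SE 0.033, adjusted p 0.00298), from an LFD median of 6.54 log2 CPM (5.84 to 7.01) to an HFD median of 6.41 (6.0 to 6.91). Ndufa6, which binds the acyl carrier protein within the complex, fell by 6.0% (adjusted p 0.00314) and was lower in 16 of 18 pairs. Ndufab1, the mitochondrial acyl carrier protein, which also serves fatty acid and iron-sulfur cluster synthesis, fell by 6.4% (adjusted p 0.00814). Ndufa12 fell by 6.0% (adjusted p 0.0152), and Ndufa8, named after its values were seen, by 7.3% (adjusted p 0.0225). The core subunit genes Ndufs1, Ndufs3, Ndufs7, Ndufs8, Ndufv1 and Ndufv2 gave log2 differences between -0.078 and 0.059, and none of these passed the test.

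Complexes III and IV and the ATP synthase followed the same small scale. Uqcr10, a small subunit of complex III, fell by 7.8% (-0.12, SE 0.044, adjusted p 0.0398), while Uqcrh, the hinge protein gene, gave -0.046 (adjusted p 0.138), Uqcr11 -0.11 (0.183) and Uqcrc2 0.035 (0.242). HFD Equal light ZT4 replicate 2 and ZT20 replicate 1, both low for complex III, enter these differences. The part of the former alone was not tested. In complex IV, Cox7a2l fell by 6.3% (adjusted p 0.00751) and Cox7a2 by 5.3% (0.0123), while Cox8a gave -0.086 (0.0557). Cox7a1 fell by 20.7% (-0.33, SE 0.115, adjusted p 0.0232), from an LFD median of 0.63 log2 CPM (-0.85 to 3.06) to an HFD median of 0.33 (-0.94 to 2.96), and is treated with the muscle forms below. Atp5o, the stalk subunit named OSCP, fell by 5.1% (-0.075, SE 0.022, adjusted p 0.00716) and was lower in 15 of 18 pairs. Atp5g2, Atp5g1 and Atp5c1 gave -0.095, -0.085 and -0.047 (adjusted p 0.0747, 0.0814 and 0.0979).

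These small calls changed with the libraries left out, and each omission also leaves fewer samples. Leaving out the libraries numbered 1 in every group left 5 calls in place of 13, 3 higher and 2 lower, with Ndufb8 at -0.06 and adjusted p 0.292, while Sdhd (adjusted p 0.0148) and Ndufaf1 (0.00376) still passed. Leaving out the pair of far libraries gave 20 calls, 4 higher and 16 lower. When the 17 libraries with much muscle or pancreas RNA were left out, 12 genes were called, 2 higher and 10 lower, and Cox7a1 (adjusted p 0.147) and Uqcr10 (0.113) no longer passed. Pancreas markers moved with diet: 12 of 13 were lower in HFD, their summed level ran from 12.1 through a median of 38.7 to 4110 CPM in LFD and from 17.4 through 40.6 to 597 in HFD, so that the medians were close and the highest LFD libraries stood apart, and their part in the diet differences beyond this omission was not tested. Macrophage markers were higher in HFD for 6 of 7, with summed levels of 212 to 634 CPM in LFD and 248 to 690 in HFD. Of 5 red blood cell markers 1 was higher and 3 were lower, and of 10 hepatocyte markers 2 were higher and 2 lower. Of 9 stellate and smooth muscle cell markers 2 were higher, of 7 endothelial markers 1, and of 14 muscle and 4 adipocyte markers 0. The part of these cell types in the diet differences was not tested.

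Within single photoperiods few of the genes were called, and the sign of the typical estimate differed between them. In Equal light 0 genes were higher and 2 lower in HFD, where the shares of all genes were 3.5% and 3.35%. In Long light 3 were higher and 0 lower, against 3.22% and 1.64%. In Short light 1 was higher and 7 lower, against 3.74% and 3.14%. The median difference of the 91 genes was -0.035 in Equal, 0.044 in Long and -0.063 in Short light, with 23, 70 and 13 estimates above 0. Over all genes tested the medians were -0.011, -0.002 and 0.003, with 6558, 7073 and 7371 of 14397 estimates above 0. Of 77 mitochondrial ribosomal protein genes, 38, 62 and 37 were above 0 in the same order. Genes of the chain vary together within groups, as given below, so their signs are not separate observations.

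The Equal light calls were Cox7a2 (-0.15, SE 0.043, adjusted p 0.025) and Sdhd (-0.14, SE 0.041, 0.0256). In Long light they were Ndufaf1 (0.17, SE 0.045, adjusted p 0.00954), Uqcrc2 (0.13, SE 0.038, 0.0353), a core protein of complex III, and, named after its values were seen, the complex I accessory subunit gene Ndufb3 (0.18, SE 0.052, 0.0274). In Short light Sdhd fell from a mean of 7.87 to 7.73 log2 CPM (adjusted p 0.0177), Atp5o from 6.49 to 6.36 (0.0184) and Cox8a from 7.05 to 6.85 (0.0271), and Ndufaf1 rose from 4.57 to 4.73 (0.0209). Ndufa6, Ndufb8, Cox5a and Cox5b also fell there, by 0.14 to 0.18 log2 units. Without the libraries numbered 1 the calls went to 0 in each photoperiod, and without those numbered 3 the Equal light calls numbered 8.

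The difference in the diet effect between photoperiods was tested directly and passed for 0 of the 91 genes, as for 0.0% of all genes. At an unadjusted p under 0.05 there were 14 of the 91, against 3.35% of all genes. Lowest by the limma F test was Atp5g3 (adjusted p 0.999), with diet differences of -0.035 in Equal, 0.085 in Long and -0.091 in Short light. Cox6b1, Cox5b and Ndufs3 followed, each positive in Long light and negative in Equal and Short light. By limma-voom 13 genes had an unadjusted p under 0.05 and 0 passed. Without the muscle-rich and pancreas-rich libraries only 2 of the 91 had an unadjusted p under 0.05, and the calls within Long and Short light went to 0 each.

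Photoperiod itself moved no gene of the set past the threshold. Long against Short light gave 0 calls, as in 0.0% of all genes, and 4 genes with an unadjusted p under 0.05 against 2.79%. Long against Equal light gave 0 calls, against 0.0278% of all genes, and 11 with an unadjusted p under 0.05 against 14.6%. Short against Equal light gave 0 calls, against 0.00695%, and 35 with an unadjusted p under 0.05, 34 of them higher in Short light, against 16.6% of all genes. By limma-voom the counts with an unadjusted p under 0.05 were 3, 14 and 35 and those called 0. The last 2 comparisons share the Equal light libraries.

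Ndufb10, a membrane arm subunit of complex I, came nearest to the threshold, with 0.10 (SE 0.03, adjusted p 0.114) for Short minus Equal light. Cox4i1, the ubiquitous form of the complex IV regulatory subunit, gave 0.12 (adjusted p 0.115), Atp5d of the central stalk 0.18 (0.136) and Atp5g2 0.15 (0.136). The median over the 91 genes was 0.046 for Short minus Equal light, 0.016 for Long minus Equal and -0.028 for Long minus Short. The genes with an unadjusted p under 0.05 became fewer under several omissions of libraries, each of which also leaves fewer samples. Without the pair of far libraries, both of them Equal light, they numbered 12 for Short against Equal and 1 for Long against Equal light. Without the muscle-rich and pancreas-rich libraries they numbered 11 and 6, and without the libraries numbered 2 the first numbered 8. For Long against Equal light the lowest p values belonged to Ndufa7 (0.12, adjusted p 0.238), Atp5d (0.15, 0.24), Uqcrq (0.14, 0.254) and Atp5g2 (0.11, 0.273), and for Long against Short light to Uqcrh (-0.067), Cox8b (0.80), Atp5k (-0.07) and Cox7c (-0.067), all with an adjusted p of 1.0.

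Time of day had the widest effect on these genes. Averaged over the 6 arms, 64 of the 91 differed between times (F test of limma with an adjusted p under 0.05), where the share of all genes was 43.5%. The rise and fall were shared: the median gene was lowest at ZT0 and ZT4, at -0.079 and -0.075 log2 units from its own daily mean, and highest at ZT12 and ZT16, at 0.061 and 0.067. From trough to peak this was 0.146 log2 units, or 10.7%. Of the 64 genes, 38 were highest at ZT16, 15 at ZT12, 7 at ZT8, 2 at ZT4 and 2 at ZT20, and 39 were lowest at ZT0, 22 at ZT4 and 3 at ZT20. In all, 53 had their highest mean at ZT12 or ZT16 with their lowest at ZT0 or ZT4. Of the 6266 genes of the whole table that differed between times, 20.4% were highest at ZT12 or ZT16 and 38.8% lowest at ZT0 or ZT4. These means run over arms whose fitted peaks lie hours apart, as given below. Those of ZT0 include the far library LFD Equal light ZT0 replicate 3. On the scale centred on each gene's mean over libraries, its median complex I gene stood at -0.565, against 0.008 and -0.066 in the others of its group. The means by time and the times of the lowest mean were not recomputed without it.

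The complexes kept nearly the same course. Those that differed between times numbered 25 of 39 in complex I, 4 of 4 in complex II, 7 of 9 in complex III, 9 of 14 in complex IV and 13 of 17 in the ATP synthase. The median gene of each was highest at ZT16, with a range over the day of 0.147, 0.163, 0.171, 0.157 and 0.152 log2 units in that order. Within each of the 6 arms, complexes I to IV and the ATP synthase all had their highest mean at the same time: in LFD this was ZT16 in Equal, ZT20 in Long and ZT12 in Short light, and ZT12, ZT16 and ZT8 in HFD in that order. The assembly factors, of which 6 of 8 differed between times, were highest at the same time as the complexes in LFD Short light and in all 3 HFD arms, and at ZT4 and ZT12 in LFD Equal and Long light. Averaged over the arms, their median was highest at ZT8 and had returned at ZT20 to the level of ZT0 (-0.064 and -0.065), while the median complex I subunit was at 0.005 at ZT20. None of the 6 was highest at ZT16, where 16 of the 25 complex I genes were highest. Leaving out the libraries numbered 3 reduced the 64 calls to 37.

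**Figure D2:**
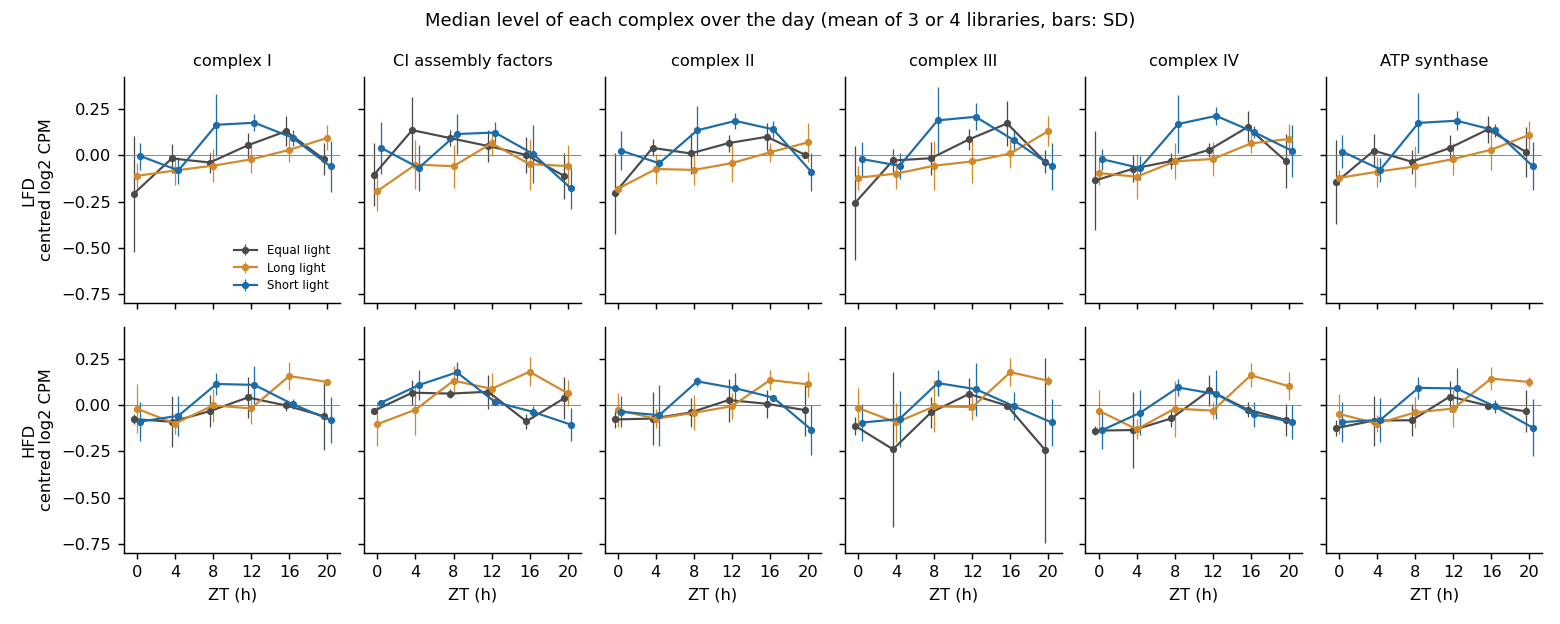
Median centred log2 CPM of the genes of each complex (columns) against ZT in hours, for LFD (upper row) and HFD (lower row), with a line per photoperiod through the means of 3 or 4 libraries and bars for the SD. Outside the assembly factors, Short light lines crest at ZT8 or ZT12 and Long light lines at ZT16 or ZT20, and the longest bars of Equal light are at the times of HFD ZT4 replicate 2, HFD ZT20 replicate 1 and LFD ZT0 replicate 3.

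Single genes carried the pattern with values that overlapped between times. Ndufs3, a core subunit of the peripheral arm of complex I, ran from 5.49 through a median of 6.03 to 6.25 log2 CPM over the 20 libraries of ZT0 and from 6.05 through 6.18 to 6.34 over the 21 of ZT16. Its lowest ZT16 library was above the median of ZT0, and the group means differed over the day by a factor of 1.15 (adjusted p 7.87e-08). Ndufb10 ran from 5.76 through 6.44 to 6.68 at ZT0 and from 6.39 through 6.64 to 6.86 at ZT16 (factor 1.18 over the day, adjusted p 8.96e-08). Ndufv2, a core subunit of the NADH-binding module, had a factor of 1.13 (adjusted p 2.7e-05). In the ATP synthase, Atp5g3 ran from 7.95 through 8.34 to 8.66 at ZT0 and from 8.38 through 8.57 to 8.74 at ZT16 (factor 1.15, adjusted p 4.07e-06), and Atp5o and Atp5b had factors of 1.14 and 1.10.

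In complex II, Sdhd rose from a mean of 7.65 at ZT0 to 7.88 at ZT12 (factor 1.17, adjusted p 1.71e-05), Sdhb had a factor of 1.18 (0.000126) and Sdhc of 1.10 (0.00285). The Rieske iron-sulfur protein gene of complex III, Uqcrfs1, ran from 7.10 through 7.29 to 7.51 at ZT0 and from 7.26 through 7.43 to 7.56 at ZT12 (factor 1.10, adjusted p 0.000206), and Uqcrh and Cyc1, the latter the gene of cytochrome c1, had factors of 1.12 and 1.15. Complex IV was led by 2 genes of subunits that surround its catalytic core, Cox5b (factor 1.19, adjusted p 3.6e-05), highest at ZT8, and Cox5a (1.16, 0.000119), highest at ZT16, followed by Cox6b1 (1.12, 0.000216), whose product lies at the contact of the dimer. Among the assembly factors Ndufaf4 had the widest range, from 4.86 at ZT0 to 5.23 at ZT12 (factor 1.29, adjusted p 0.000191). Ndufaf6 went from 3.25 to 3.54 over the same hours (1.22, 4.62e-06), and Ndufaf7 was highest at ZT4 (1.16, 0.00142). Among these, Sdhb, Cyc1 and Ndufaf7 lost their calls without the libraries numbered 3 (adjusted p 0.0513, 0.0588 and 0.146).

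When each arm was fitted by itself with a cosine of 24 h, the number of rhythmic genes of the chain varied widely between arms. In LFD the test passed for 23 of 91 in Equal light (20.9% of all genes), 10 in Long light (23.6%) and 38 in Short light (27.1%). In HFD it passed for 4 in Equal light (16.5% of all genes), 22 in Long light (21.8%) and 22 in Short light (14.1%). These counts do not show that arms differ. Rhythms are compared below between photoperiods, averaged over diets, and between diets, averaged over photoperiods, and single arms were not compared. The counts of rhythmic genes changed with the replicate number left out, and each omission also leaves fewer samples. The lowest were 4 in Equal (number 3), 2 in Long (number 1) and 7 in Short light (number 2) of LFD. In HFD they were 0 (number 3), 5 (number 2) and 4 (number 1), in the same order. Without the pair of far libraries, both of Equal light, LFD Equal light had 9 and HFD Equal light 8. Amplitudes, from the daily mean to the peak, were small: the median over the 91 genes lay between 0.089 log2 units (LFD Long) and 0.144 (LFD Short), where that of all genes lay between 0.137 and 0.166.

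The fitted peaks gathered within an arm, least so in HFD Equal light, and moved between photoperiods. In LFD the median peak of the 91 genes was at ZT 11.7 h in Short, 13.9 h in Equal and 16.6 h in Long light. In HFD it was at ZT 10.5 h, 13.1 h and 16.9 h in the same order. The middle of the distribution, from the lower to the upper quartile, was narrowest in LFD Short light, at 10.8 to 12.5 h. It was widest in HFD Equal light, at 11.7 to 15.8 h, and spanned 15.7 to 18.3 h in HFD Long light. Among the genes called in both arms, all 9 peaked later in Long than in Short light in LFD, by a median of 6.3 h (5.2 to 7.4 h), and all 15 in HFD, by a median of 6.7 h (5.2 to 8.7 h). The whole table moved in the same direction, with a median of 8.0 h in each diet over the 1946 and 1390 genes called in both arms. From Equal to Long light the 8 genes called in both LFD arms moved later by 4.3 h, where the whole table gave 4.4 h, and the 17 called in LFD Short and Equal light peaked earlier in Short light by 2.2 h, where the whole table gave 3.1 h. Where ZT0 falls in each photoperiod is not given by the labels, so these hours are on the scale of the labels alone.

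**Figure D3:**
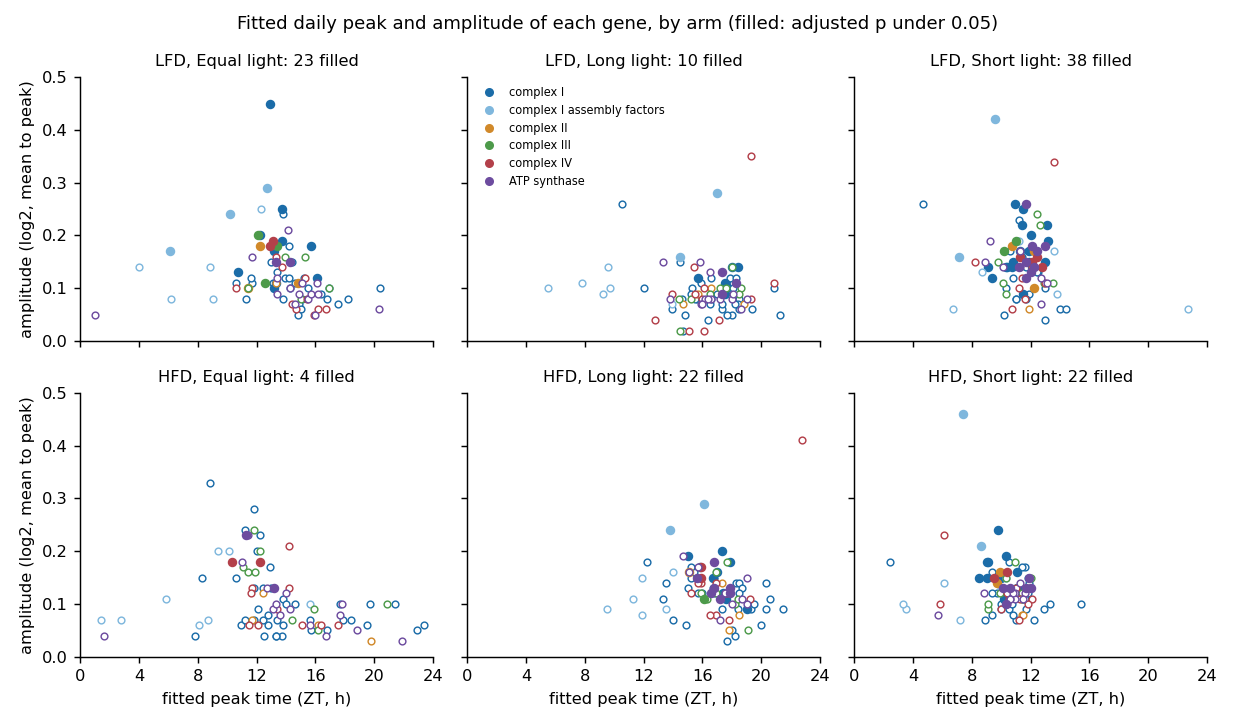
Fitted amplitude in log2 units (vertical axis) against fitted peak time in ZT hours (horizontal axis) of each tested gene, a panel per arm, coloured by complex and filled where the adjusted p is under 0.05. The points gather near ZT 10 to 12 h in the Short light panels and near ZT 17 h in the Long light panels, with complex I assembly factors spread to earlier hours, and Cox6a2 and Cox8b, which did not pass in any arm, are not drawn.

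The assembly factors had earlier median peaks than the subunits. Their median fitted peak was at ZT 8.9, 9.7 and 9.2 h in the Equal, Long and Short light arms of LFD, against 13.9, 17.3 and 11.5 h for the complex I genes. In HFD it was at 8.4, 12.7 and 7.3 h, against 13, 17.3 and 10.5 h. With 8 genes, of which 0 to 3 passed in any arm, this is a description.

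No gene of the set was rhythmic in all 6 arms, where 4.11% of all genes were, and 41 of the 91 were rhythmic in none, against 48.5% of all genes. The 5 that passed in 5 arms, as 3.81% of all genes did, were Ndufs3 and Ndufb10 of complex I, the assembly factors Ndufaf4 and Ndufaf6, and Atp5a1, and each of them missed in HFD Equal light. A further 8 passed in 4 arms, as did 4.33% of all genes: Ndufa5, Ndufa10, Ndufc2, Ndufs1 and Ndufv2 of complex I and Atp5b, Atp5g3 and Atp5o of the ATP synthase.

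Ndufaf4, whose product works with that of Ndufaf3 in building the ubiquinone-binding module of complex I, shows the displacement in single libraries. In LFD Short light it was highest at ZT8, with 5.83, 5.68 and 5.57 log2 CPM, and low at ZT20, with 4.53, 4.61, 4.8 and 4.79. In LFD Long light ZT8 was instead the lowest time, with 4.49, 4.59, 4.78 and 4.66, and the libraries of ZT20 stood at 5.35, 5.27 and 5.04. The order of both times was thus reversed between the photoperiods without overlap of the libraries. In HFD the ZT8 libraries stood at 5.39, 5.47, 5.67 and 5.66 in Short light and at 4.73, 4.63, 5.08 and 5.01 in Long light, again apart. Its fitted peak was at ZT 9.6 h (amplitude 0.42, adjusted p 5.95e-05) in LFD Short, 12.7 h (0.29, 0.0108) in LFD Equal and 17 h (0.28, 0.00827) in LFD Long light. In HFD it was at 7.4 h (0.46, 1.97e-05) in Short and 16.1 h (0.29, 0.016) in Long light, and did not pass in Equal light (0.10, adjusted p 0.604). The HFD Equal light group of ZT20 holds a far library, replicate 1, which stood at 5.87 against 4.87, 4.8 and 5.06 in the others.

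Ndufb10 moved in parallel. Its LFD Short light libraries stood at 6.93, 6.87 and 6.74 log2 CPM at ZT8, and those of LFD Long light at 6.41, 6.33, 6.36 and 6.55, below all of them. At ZT20 the Short light libraries stood at 6.44, 6.32, 6.41 and 6.75 and the Long light libraries at 6.82, 6.96 and 6.48, which overlapped. The fitted peaks were at ZT 11.4, 13.7 and 18.4 h in LFD Short, Equal and Long light and at 10.3 and 17.9 h in HFD Short and Long light. Those of Ndufs3 were at 10.4, 13.7 and 17.5 h and at 10 and 16.7 h, in the same order.

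**Figure D4:**
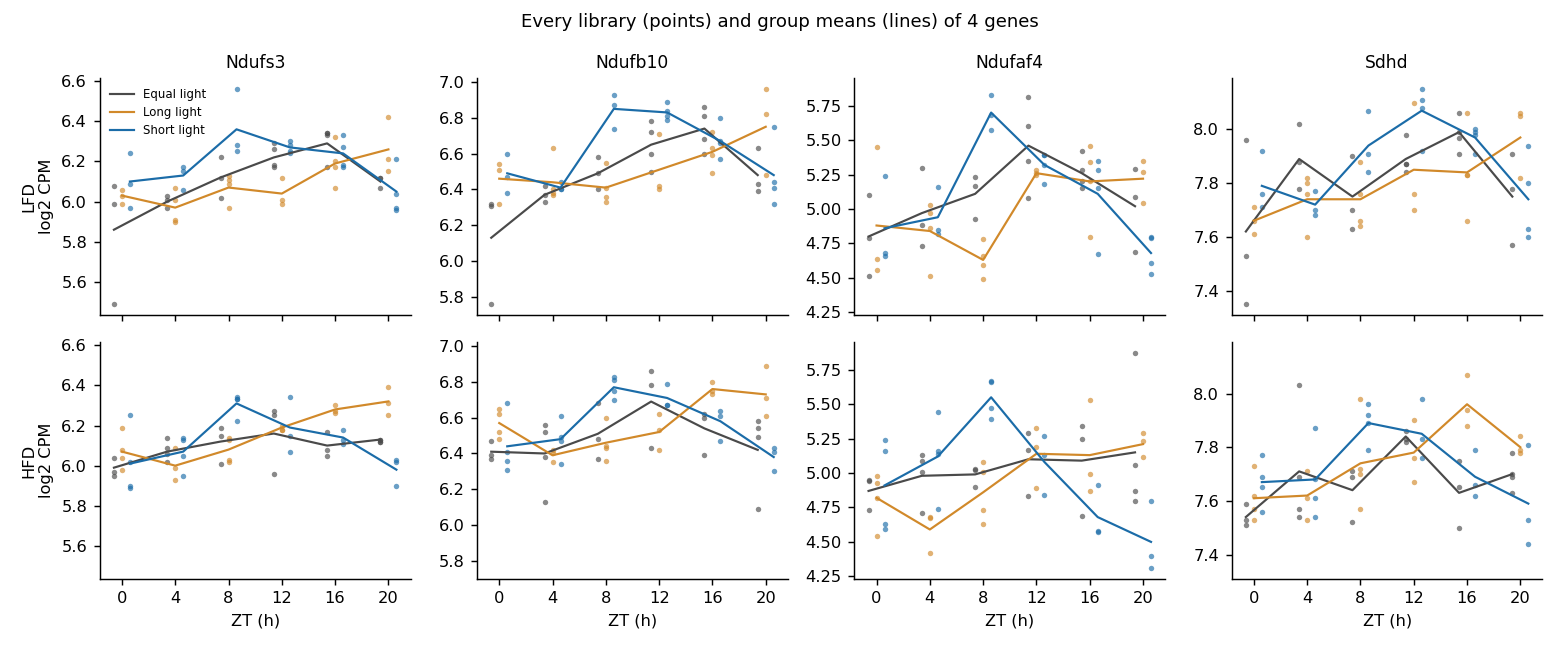
Log2 CPM of Ndufs3, Ndufb10, Ndufaf4 and Sdhd (columns) against ZT in hours in LFD (upper row) and HFD (lower row), with a point per library and a line per photoperiod through the group means. Short light lines lead and Long light lines trail, most plainly for Ndufaf4 at ZT8, and the low point of Ndufs3 and Ndufb10 at LFD Equal light ZT0 is replicate 3.

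The difference in rhythm between photoperiods, tested directly on the cosine and sine coefficients averaged over diets, passed for 49 of the 91 genes, where the share of all genes was 49.1%. The count is therefore near that of the table. By complex these were 20 of 39 in complex I, 4 of 8 assembly factors, 3 of 4 in complex II, 5 of 9 in complex III, 4 of 14 in complex IV and 13 of 17 in the ATP synthase. The lowest adjusted p values were those of Ndufaf4 (2.71e-09), Ndufb10 (9.22e-08), Ndufs3 (9.25e-07) and the complex I accessory subunit gene Ndufa5 (7.03e-06). Leaving out the libraries numbered 2 reduced the 49 to 15, and leaving out the muscle-rich and pancreas-rich libraries reduced them to 26.

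Averaged over photoperiods, the rhythm did not differ detectably between diets. Diet differences of opposite direction would cancel in this average, and the rhythms of the diets were not compared within a photoperiod. The test of the average passed for 0 of the 91 genes, against 0.00695% of all genes. At an unadjusted p under 0.05 there were 0 of the 91, against 2.78%. By limma-voom both counts were also 0. Sdha, Ndufaf4, Ndufa8 and Ndufa9 came lowest, all with an adjusted p of 1.0.

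The muscle forms of complex IV were highest in the libraries that held the most muscle RNA. Cox6a2 had 0 reads in 32 libraries and Cox8b in 33, and their log2 CPM ran from the floor of -3.61 up to 3.77 and 3.25. Of the 10 libraries with the most Cox6a2, 9 were also among the 10 with the highest mean level of 14 skeletal muscle markers, and the same was true of 9 for Cox8b and of 6 for Cox7a1. Where Cox6a2 had 0 reads, the muscle marker level had a median of -2.57 log2 CPM. Cox7a1 differed from the other pair in that it had reads in every library and stayed between -0.94 and 3.06 log2 CPM. Heart markers summed to at most 4.84 CPM in any library, against up to 1300 for skeletal muscle. Their diet differences were -0.10 (SE 0.342) for Cox6a2 and 0.03 (SE 0.303) for Cox8b, and the part of muscle RNA in that of Cox7a1, beyond the omission given above, was not tested.

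**Figure D5:**
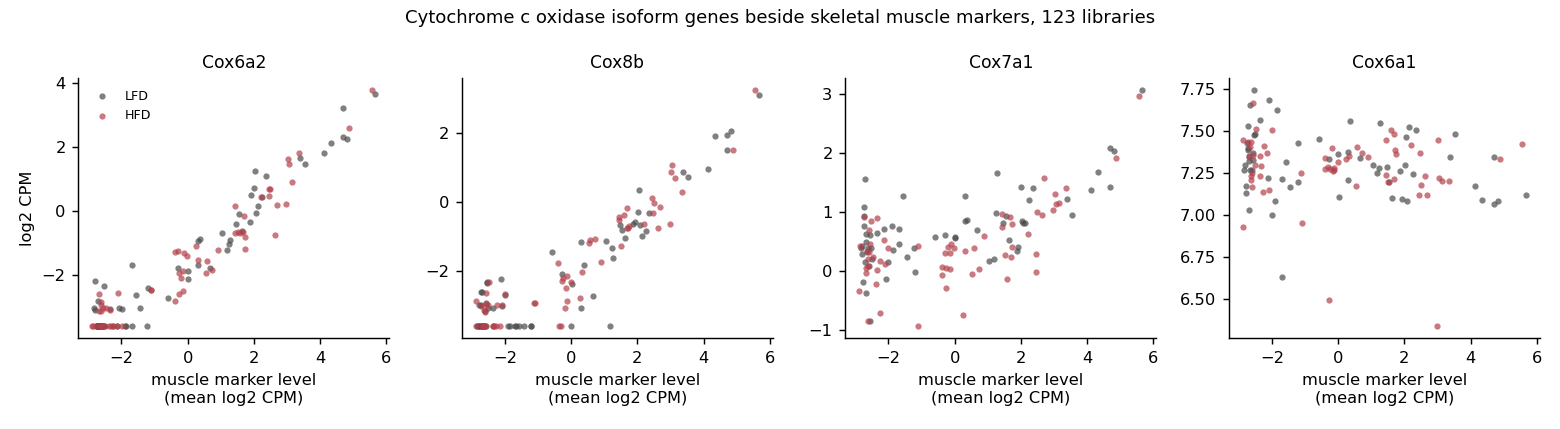
Log2 CPM of Cox6a2, Cox8b, Cox7a1 and Cox6a1 (vertical axes, each with its own scale) against the mean log2 CPM of 14 skeletal muscle markers (horizontal axis), a point per library, grey for LFD and red for HFD. Cox6a2 and Cox8b climb from their floor of -3.61 with the markers, Cox7a1 does so only in the libraries with much muscle RNA, and the liver form Cox6a1 does not climb.

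Other genes of the pathway, taken from lists, are given beside the shares of all genes tested, 12.9% higher and 12.6% lower in HFD. Of 19 genes for electron carriers and entry points, 8 were higher and 0 lower in HFD, led by Etfdh (0.23, SE 0.031, adjusted p 4.94e-09), whose product hands electrons of fatty acid oxidation on to ubiquinone, and by the ubiquinone genes Pdss2 (0.14) and Coq10a (0.13). Of 13 enzymes of the tricarboxylic acid cycle, 4 were higher and 0 lower, led by Suclg2 (0.16, SE 0.027, adjusted p 2.01e-06), Sucla2 (0.082) and Suclg1 (0.09), which encode the subunits of succinyl-CoA synthetase. Of 42 further assembly factors, 8 were higher and 1 lower, led by Taco1 (0.16, adjusted p 9.19e-07), which activates translation of a complex IV subunit in mitochondria, and Uqcc2 (0.19, adjusted p 3.8e-05), which serves complex III. The copper chaperone gene Cox17 was lower (-0.12, adjusted p 0.0135). Of 77 mitochondrial ribosomal protein genes, 7 were higher and 1 lower, together 10.4% against 25.5% of all genes, led by Mrpl45 (0.12), Mrpl49 (0.083) and Mrpl46 (0.082).

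Of the 13 protein genes of the mitochondrial genome, 7 were measured, and 4 of these were higher in HFD: mt-Cytb (0.12, SE 0.031, adjusted p 0.00344), mt-Nd6 (0.11), mt-Nd4 (0.082) and, named after its values were seen, mt-Nd5 (0.097). Within photoperiods 4 were called higher in Equal light, 0 in Long and 0 in Short light, where 3.5%, 3.22% and 3.74% of all genes were. The median differences were 0.155, 0.047 and 0.023, and the difference of the diet effect between photoperiods passed for 0 of the 7. Of 14 regulators, 2 were higher and 1 lower in HFD, together 21.4% against 25.5% of all genes. Ppara, the receptor that governs fatty acid oxidation, rose (0.26, SE 0.055, adjusted p 0.000129) and Ppargc1a, the coactivator of mitochondrial biogenesis, fell (-0.33, SE 0.072, adjusted p 0.000224), while Esrrg, an estrogen-related receptor, rose (0.40, adjusted p 0.0141). With time of day, 15 of 19 electron entry genes, 9 of 13 cycle enzymes, 20 of 42 assembly factors, 38 of 77 mitochondrial ribosomal genes, 9 of 14 regulators and 2 of 7 mitochondrial genome genes differed, where 43.5% of all genes did. The shares of the assembly factors, 47.6%, and of the ribosomal genes, 49.4%, were near that of the table, and that of the mitochondrial genome genes was 28.6%. By the limma F test over times, Esrra (adjusted p 0.000292) and Ppargc1b, a relative of Ppargc1a (adjusted p 2.41e-06), were among the regulators that differed. Their mean fitted peaks over the arms were at ZT 12 h and ZT 7.9 h, with amplitudes of 0.19 and 0.40. These mean fits were not tested themselves.

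Within groups, where diet, photoperiod and time were the same, the genes of the chain varied together. Over 87 genes with a mean log2 CPM above 2, the median Pearson r between pairs of genes across all libraries, after removal of group means, was 0.41, and 88% of pairs were positive. It was 0.52 within the ATP synthase, 0.51 in complex II, 0.45 in complex IV, 0.42 in complex I, 0.35 in complex III and 0.12 among the assembly factors. For the mitochondrial ribosome it was 0.24, for the cycle enzymes 0.20 and for the further assembly factors 0.14. In these sets 84.2%, 78.2% and 74.8% of pairs were positive, so a majority of positive pairs was not particular to the chain. The 7 mitochondrial genome genes had a median r of 0.69 among themselves and -0.02 with the nuclear genes. All these points share their libraries, so depth, RNA quality and the far libraries enter every pair, and their part was not tested. Base composition moved with it: genes with transcript GC above the median had a median r of 0.56 with each other, those at or below it 0.42, and pairs of 1 gene from each side 0.37. The within-group SD of the 91 genes had a median of 0.154 log2 units, against 0.177 for genes at a log2 CPM of 4 to 8.

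Some of these genes cannot be counted with certainty from short reads. Of 90 genes with a protein-coding transcript in the annotation, 26 had a stretch of at least 200 bases that matched a transcript of another annotated gene at 95% identity or more, 19 of them a pseudogene. Among the genes named above these include Ndufs3, Ndufab1, Ndufa12, Ndufb3, Cox7a2l, Cox5b, Uqcrc2, Atp5o, Atp5c1, Atp5g1 and Atp5k, and Atp5l had 9 such matches. Reads of such stretches could be dropped or assigned to either gene, so the levels of these genes are uncertain. Ndufb1 is annotated as a bidirectional promoter lncRNA in the release used here.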

How the data were processed

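Per the labels' protocols, RNA was extracted from liver with Trizol and RNeasy, and poly-A stranded libraries (TruSeq) were sequenced on a NovaSeq. Per the submitters' processing notes, the tools were STAR and featureCounts of Subread 1.6.2 with mm10 (GRCm38). Their roles beyond that, the strand setting and the normalization step are not given in the sources used here. A single table, deposited by the authors, holds log2 CPM values for all libraries. The values themselves are whole reads plus 2 reads, scaled to the library: 100% of the values gave whole reads within 0.05 of a read, which supplied the depths. A gene with 0 reads stands at -3.61.

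From the deposited values, limma 3.58.1 (limma-trend, R 4.3.3) fitted 1 mean per group over all libraries, and a second model gave each arm a mean, a cosine and a sine of 24 h. The 14397 genes that reached 1 CPM in 3 or more libraries were tested, with Benjamini-Hochberg adjustment over all of them and a threshold of 0.05. The effect of each choice is given in the closing section: limma-voom on the recovered reads, no filter or a stricter one, another pseudocount, recomputed TMM factors, omission of marker-rich or far libraries and of each replicate number, and an F test over the 6 times. All table columns matched a labelled sample.

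Genes were named by a rule: up to 4 per complex lowest in p for diet, up to 3 for time, up to 4 for each photoperiod comparison and rhythm difference, paralog sets, and up to 3 per pathway list. Genes named for their level per length or their number of rhythmic arms were chosen after their values were seen. Members and lists were chosen with earlier results of these data known. Near copies were sought with BLAST 2.17.0, and plots and summaries made with Python 3.11.15, pandas 2.3.3, numpy 2.4.6 and matplotlib 3.10.9. Cox4i2 and Cox6b2 are not analysed here.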

Additional observations from a re-analysis of the deposited data

Results flagged for a closer look

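In groups of 4 libraries, the median level of a complex was examined for a library set apart from the other 3, by Dixon's criterion on values centred on each gene's mean. Among 90 such sets, 9 had one, where chance alone gives about 1 in 20 for separate sets. The complexes were scored on the same libraries and vary together, so the sets are not separate and the 9 cannot be weighed against that rate. HFD Equal light ZT20 replicate 1 accounts for 3 of the 9: it was lowest for complex III at -0.987 and complex II at -0.231, and highest for the complex I assembly factors at 0.208. The assembly factors also had a library apart in HFD Long light ZT0, highest at 0.076, and in LFD Long light ZT16, lowest at -0.255. Complex II had one in LFD Short light ZT16, lowest at 0.075. Complex IV had one in HFD Long light ZT0, highest at 0.141, and in HFD Long light ZT8, lowest at -0.243. The ATP synthase had one in HFD Short light ZT0, highest at 0.069. The libraries apart in HFD Long light ZT0 (replicate 2, for both sets) and in LFD Long light ZT16 (replicate 4) were among the 17 rich in muscle or pancreas RNA, with mean muscle marker levels of 5.56 and 4.12 log2 CPM, and the other libraries apart were not. The part of that RNA in these values was not tested.

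The daily rhythm differed between photoperiods, by the direct limma test of the difference, for 49 genes of the set, or 53.8%, where 49.1% of all genes differed, so the share is near that of the table. The count was 26 when the marker-rich libraries were left out and 15 without those numbered 2. The lowest adjusted p was that of Ndufaf4 at 2.71e-09, followed by Ndufb10 at 9.22e-08, Ndufs3 at 9.25e-07 and Ndufa5 at 7.03e-06.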

How the results depend on the processing

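By limma-voom, no filter, a stricter filter, log2(CPM + 1) and recomputed TMM factors, the counts of called genes stayed within 1.5 times those reported. Omission of libraries with high muscle or pancreas markers gave 0 diet calls in Long and 0 in Short light, rhythmic genes of 1 and 22 in LFD Long and Short light and 1, 9 and 9 in HFD Equal, Long and Short light, and 26 differences in rhythm between photoperiods. Leaving out the pair of far libraries gave 20 diet calls over all photoperiods, 6 in Equal light, and 9 rhythmic genes in LFD and 8 in HFD Equal light. An F test over the 6 times gave 5 rhythmic genes in LFD Long light and 1, 9 and 8 in HFD Equal, Long and Short light. The cause of these changes was not tested, but each omission also leaves fewer samples. Leaving out each replicate number in turn gave 5 to 13 diet calls over all photoperiods, 0 to 8 in Equal, 0 to 2 in Long and 0 to 6 in Short light, and 37 to 68 calls with time. Rhythmic genes then ranged from 4 to 18 in Equal, 2 to 9 in Long and 7 to 38 in Short light of LFD, from 0 to 4, 5 to 17 and 4 to 17 in HFD, and differences between photoperiods from 15 to 50. Sdhd and Ndufaf1 passed for diet in every setting, from -0.0898 to -0.1275 and from 0.1226 to 0.1844. The counts of 0 for the diet by photoperiod interaction, the photoperiod comparisons and the diet difference in rhythm remained 0 in every setting. None of the 13 genes called for diet changed sign in any setting, but the balance of the diet calls did change: 2 higher and 11 lower became 3 higher and 2 lower without replicate 1. No paired analysis was possible because the labels give no replicate numbers, and those used here only follow accession order. The median 95% interval of a diet difference reached 0.056 log2 units to either side over all photoperiods and 0.096 to 0.099 within one.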
